A study of Mus musculus with 12 samples.

Results

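Early B cell genes are the genes that a bone marrow cell switches on as it commits to the B lineage and assembles its first antigen receptor. The set described here has 10 genes, chosen by name, of 15858 genes on the arrays: Vpreb1, Igll1, Vpreb3, Dntt, Rag1, Cd79a, Cd79b, Ebf1, Pax5 and Il7r. Their 18 probe sets are all those to which the platform annotation gives exactly 1 gene symbol from that set. Expression was measured in total RNA on 12 Affymetrix mouse arrays, 3 in each of 4 groups, and nothing was filtered out, so all 10 genes were tested.

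All 4 groups started from bone marrow cells of C57BL6 mice immortalised with HoxA9, a homeobox transcription factor, so every sample carries it. The IDH1mut cells were transduced with the retroviral vector pSF91-IDH1mut-IRES-GFP, which carries a mutant isocitrate dehydrogenase 1 that is not named further in the labels. The R-2HG cells carried the empty vector, and their recipients received R-2-hydroxyglutarate, the metabolite that cancer-associated IDH1 mutants produce, at 1 mg per day for 4 weeks. The IDH1wt cells carried pSF91-IDH1wt-IRES-EGFP with the wild-type enzyme, and the empty vector cells were left untreated. All were transplanted into irradiated mice, and cells positive for the vector's fluorescent protein were sorted from the marrow after 4 weeks. For the R-2HG arrays the labels conflict, since 1 field gives the IDH1mut construct and all others the empty vector, which was taken as right. Whether the 3 replicates of a group are separate mice is not stated, and the p-values therefore reflect a spread between samples that may be technical.

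In normal marrow the cytokine receptor chain Il7r carries survival and growth signals to lymphoid progenitors, and the transcription factors Ebf1 and Pax5 establish and hold B cell identity. Rag1 cuts the immunoglobulin genes for recombination, and Dntt, terminal deoxynucleotidyl transferase, adds untemplated nucleotides at the joints. The new heavy chain is first displayed with a surrogate light chain made of the Vpreb1 and Igll1 proteins, and it signals through Cd79a and Cd79b. Vpreb3 is a relative of Vpreb1 that binds immunoglobulin chains inside precursor B cells.

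The values are log2 expression values centred on each probe set, so they show differences between arrays and not how much RNA of a gene was present. Neither the presence of B cells nor the labelled tissue can therefore be checked from the level of a marker. Array totals carry no depth, and the number of arrays limits the precision. In sorted bulk cells, fewer cells of a type and less RNA per cell cannot be told apart.

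Vpreb1, Igll1 and Dntt stood apart from the other members. On each of them all 3 IDH1mut arrays lay above all 9 other arrays, which was true of 6.28% of all genes. Vpreb1, on its single probe set, was at 1.96, 1.26 and 2.81 in IDH1mut replicates 1, 2 and 3, at -1.26, -1.16 and -2.14 in R-2HG, at -1.20, 0.20 and -0.40 in IDH1wt, and at 1.04, 0.20 and 0.00 in empty vector. The R-2HG arrays also lay below every empty vector array, so that the IDH1mut and R-2HG arrays lay on opposite sides of the empty vector arrays. A second probe set, annotated to both Vpreb1 and its near-identical relative Vpreb2 and therefore not counted as a member, was at 1.65, 1.14 and 2.43 in IDH1mut and at 0.86, 0.22 and 0.01 in empty vector. Signal from the copies may be shared between such probes, so the value of Vpreb1 is uncertain to that extent.

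Igll1 gave different answers on its probe sets. Probe set 1420176_x_at was at 1.80, 1.15 and 2.72 in IDH1mut, at -0.84, -0.53 and -1.05 in R-2HG, at -0.71, 0.04 and -0.35 in IDH1wt, and at 1.10, 0.00 and 0.15 in empty vector. Probe set 1420177_at stayed between -0.33 and 0.35 on all 12 arrays. The gene value, the mean of both, therefore understates the difference seen on the first and overstates that on the second.

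Dntt was at 1.39, 1.24 and 2.69 in IDH1mut, at -0.15, -0.01 and -0.75 in R-2HG, at -0.71, 0.10 and -0.24 in IDH1wt, and at 0.68, 0.13 and 0.04 in empty vector, as the mean of 3 probe sets. The 3 probe sets agreed in direction, with IDH1mut above the highest array of the other groups on each.

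The promoters of these 3 genes are shown because the genes moved together in IDH1mut cells. Each is the 250 bases before the RefSeq start on GRCm38.p6, written 5′ to 3′ on the gene's strand, with capitals for 2 motifs searched on both strands: CCCNNGGG, the core bound by Ebf1 protein, and the sequence CAGGTG, an E-box bound by E2A, the protein of Tcf3. No match overlaps another in these windows, and Dntt has no match. Vpreb1 is at chr16:16869256-16869505 on the minus strand, Igll1 at chr16:16863986-16864235 on the minus strand and Dntt at chr19:41029025-41029274 on the plus strand.
Vpreb1: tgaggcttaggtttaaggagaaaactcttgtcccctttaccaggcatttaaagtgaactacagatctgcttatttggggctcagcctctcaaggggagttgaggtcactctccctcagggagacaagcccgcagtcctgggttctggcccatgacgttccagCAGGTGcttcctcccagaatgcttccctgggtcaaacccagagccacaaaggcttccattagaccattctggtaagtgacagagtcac
Igll1: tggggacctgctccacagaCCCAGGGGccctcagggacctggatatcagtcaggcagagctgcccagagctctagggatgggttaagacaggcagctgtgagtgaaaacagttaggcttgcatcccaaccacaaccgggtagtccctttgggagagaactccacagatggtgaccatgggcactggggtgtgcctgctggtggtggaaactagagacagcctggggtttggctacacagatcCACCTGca
Dntt: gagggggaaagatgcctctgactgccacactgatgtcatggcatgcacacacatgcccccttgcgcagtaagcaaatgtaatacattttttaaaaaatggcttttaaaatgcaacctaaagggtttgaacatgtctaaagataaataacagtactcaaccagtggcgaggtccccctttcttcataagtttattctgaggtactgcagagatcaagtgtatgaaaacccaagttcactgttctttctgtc
Of the 10 members, 9 had a promoter entry. The E-box was found in 4 of these 9 genes, Vpreb1, Igll1, Cd79a and Rag1, and in 17.2% of all 32851 promoter windows of the same length. The Ebf1 core was found in 1, Igll1, and in 11.8% of all windows. A match is a description of the letters and shows no binding.

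**Figure D1:**
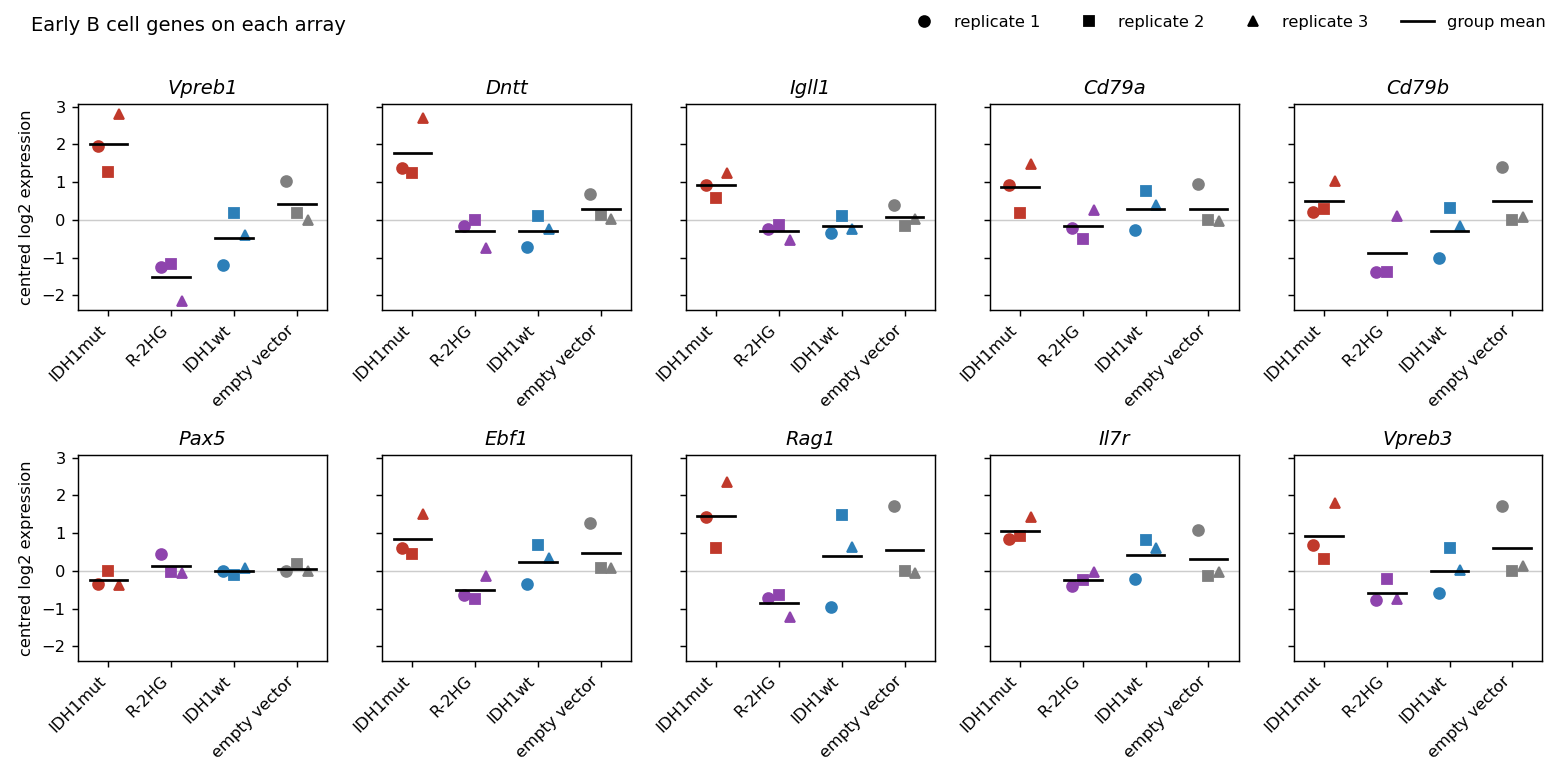
Centred log2 expression (y axis) of the 10 early B cell genes on each array, grouped as IDH1mut, R-2HG, IDH1wt and empty vector (x axis), where symbols are replicates 1 to 3 and lines are group means. All 3 IDH1mut arrays lie above the other 9 for Vpreb1, Dntt and Igll1, whereas for the other members empty vector replicate 1 lies above at least 1 IDH1mut array.

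For the remaining members the IDH1mut arrays overlapped those of at least 1 other group. Rag1 was at 1.42, 0.61 and 2.35 in IDH1mut, at -0.71, -0.64 and -1.22 in R-2HG, at -0.95, 1.49 and 0.62 in IDH1wt, and at 1.72, 0.00 and -0.05 in empty vector. Thus IDH1wt replicate 2 and empty vector replicate 1 were both above IDH1mut replicates 1 and 2. Ebf1, the mean of 5 probe sets, was at 0.62, 0.45 and 1.51 in IDH1mut, at -0.64, -0.75 and -0.15 in R-2HG, at -0.36, 0.68 and 0.35 in IDH1wt, and at 1.27, 0.08 and 0.07 in empty vector. Probe set 1457441_at of Ebf1 stayed between -0.39 and 0.27, and the other 4 ranged more widely, up to 2.25 in IDH1mut replicate 3.

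The receptor genes followed the same arrays. Il7r was at 0.84, 0.91 and 1.44 in IDH1mut, at -0.41, -0.25 and -0.04 in R-2HG, at -0.21, 0.83 and 0.61 in IDH1wt, and at 1.08, -0.14 and -0.03 in empty vector. All IDH1mut arrays exceeded all IDH1wt arrays for Il7r, but the lowest IDH1mut value, 0.84, lay beside the highest IDH1wt value, 0.83. Counting Il7r, 4 of 10 members had IDH1mut above IDH1wt with no overlap, as did 15.8% of all genes, where 32.7% did not overlap in either direction. Cd79a ranged from 0.19 to 1.49 in IDH1mut, from -0.50 to 0.25 in R-2HG, from -0.27 to 0.78 in IDH1wt and from -0.04 to 0.94 in empty vector. Cd79b was at -1.37, -1.37 and 0.10 in R-2HG replicates 1, 2 and 3, against 1.41, 0.00 and 0.08 in empty vector, so that R-2HG replicate 3 lay among the empty vector arrays.

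Vpreb3 was at 0.69, 0.31 and 1.81 in IDH1mut, at -0.77, -0.22 and -0.76 in R-2HG, at -0.59, 0.61 and 0.01 in IDH1wt, and at 1.73, 0.00 and 0.13 in empty vector. Unlike Vpreb1, it had an empty vector array above IDH1mut replicates 1 and 2. Pax5 showed the smallest range, from -0.38 to 0.00 in IDH1mut, from -0.06 to 0.44 in R-2HG, from -0.10 to 0.09 in IDH1wt and from 0.00 to 0.17 in empty vector.

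In the groups other than R-2HG, the highest array was the same for nearly every member. IDH1mut replicate 3 was the highest IDH1mut array, IDH1wt replicate 2 the highest and replicate 1 the lowest IDH1wt array, and empty vector replicate 1 the highest empty vector array, each for 9 of 10 members. Pax5 was the exception each time. Among the R-2HG arrays, replicate 1 was highest for 1 member, replicate 2 for 5 and replicate 3 for 4. The lowest empty vector array also varied, with replicate 2 lowest for 4 members and replicate 3 for 5. The group means fell in the order IDH1mut, empty vector, IDH1wt and R-2HG for 8 of 10 members, but 0 of 10 members were free of overlap between IDH1wt and empty vector (23.8% of all genes were) or between R-2HG and IDH1wt (53.4% of all genes were). Il7r had IDH1wt above empty vector, and Pax5 had R-2HG highest and IDH1mut lowest.

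**Figure D2:**
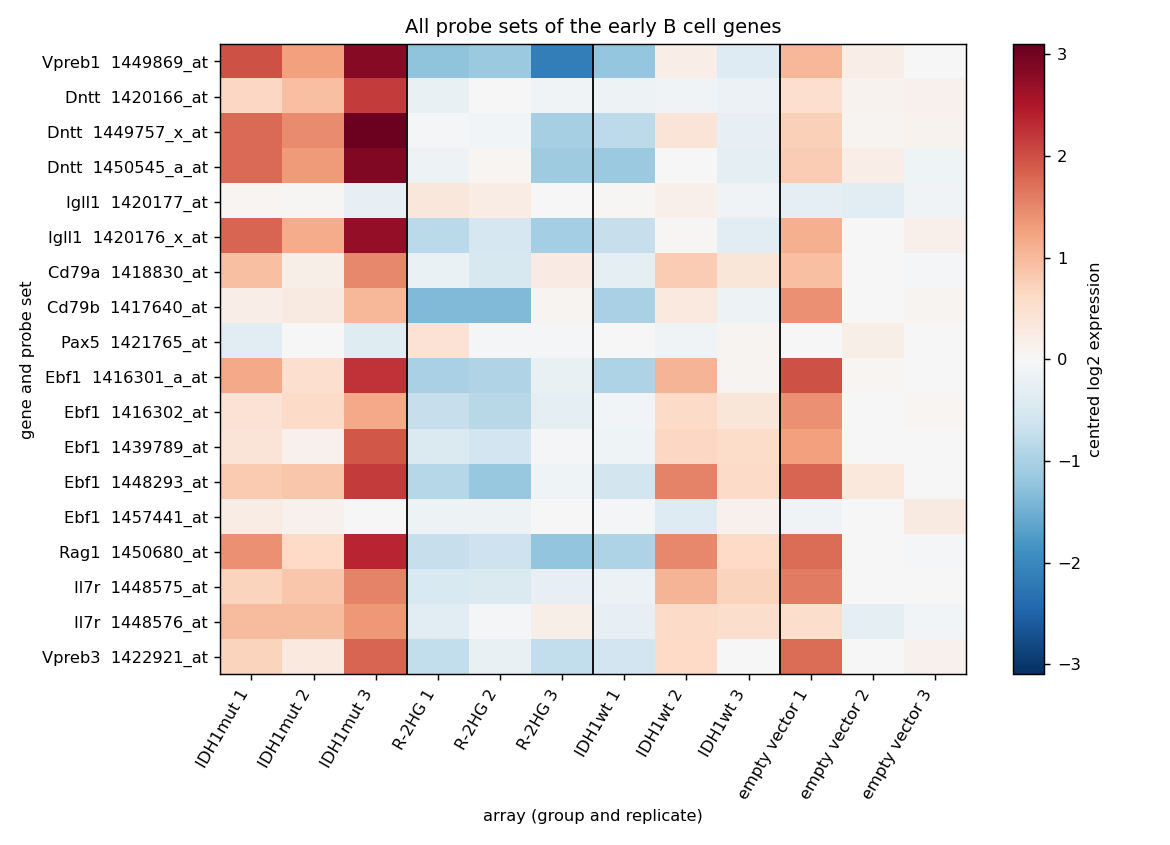
Centred log2 expression (colour, red above and blue below 0) of the 18 probe sets of the early B cell genes (rows) on the 12 arrays (columns, by group and replicate). Igll1 1420177_at, Ebf1 1457441_at and Pax5 1421765_at are nearly flat, and IDH1mut replicate 3 and empty vector replicate 1 are red across most other rows.

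Mutant IDH1 was first set against wild-type IDH1, a comparison of cells that both carry an IDH1 construct. Vpreb1, Dntt and Igll1 rose, and none of the 10 members fell. Each gene was tested with limma, taking a Benjamini-Hochberg adjusted p under 0.05 over 15858 genes as a call, and the test called 15.7% of all genes here and 8.37% as higher. Vpreb1 averaged 2.01 ± 0.78 in IDH1mut and -0.47 ± 0.70 in IDH1wt (SD, n = 3 each), a log2 fold change of 2.48 ± 0.44 (SE, limma adjusted p = 0.00307). Dntt averaged 1.77 ± 0.80 in IDH1mut and -0.29 ± 0.41 in IDH1wt, a log2 fold change of 2.06 ± 0.35 (limma adjusted p = 0.00263). Igll1 averaged 0.92 ± 0.32 in IDH1mut and -0.16 ± 0.22 in IDH1wt, with a log2 fold change of 1.08 ± 0.18 (limma adjusted p = 0.00260). On its probe set 1420176_x_at the log2 fold change was 2.23, and on 1420177_at it was -0.07 (limma adjusted p = 0.746). Of the 7 other members, 6 had positive log2 fold changes that did not pass, from 0.57 for Cd79a to 1.07 ± 0.62 for Rag1, and Pax5 was at -0.24 ± 0.14. Il7r passed on 1 of its 2 probe sets, 1448576_at (0.81, limma adjusted p = 0.0458), and limma called 14.1% of all probe sets. The median log2 fold change of the 10 members was 0.86, beside 0 over all genes.

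Against the empty vector Vpreb1, Dntt and Igll1 rose in IDH1mut cells, again 3 of 10 members. The log2 fold change was 1.60 ± 0.44 for Vpreb1 (limma adjusted p = 0.0202), 1.49 ± 0.35 for Dntt (limma adjusted p = 0.00985) and 0.84 ± 0.18 for Igll1 (limma adjusted p = 0.00671). Here 22.6% of the genes on the array were called by limma and 10.5% were called higher. For Igll1 the call rested on probe set 1420176_x_at (1.47, limma adjusted p = 0.0126), while 1420177_at was at 0.20 (limma adjusted p = 0.272). Il7r passed on probe set 1448576_at (1.04, limma adjusted p = 0.00955) but not as the mean of both. Cd79b stood at 0.01 ± 0.48 and Vpreb3 at 0.32 ± 0.48, and the members outside those 3 ranged from -0.30 for Pax5 to 0.90 for Rag1 without passing. The call of Vpreb1 was lost without IDH1mut replicate 3 (1.20, limma adjusted p = 0.0894), without empty vector replicate 2 (1.49, limma adjusted p = 0.0694) or replicate 3 (1.40, limma adjusted p = 0.0813) and after quantile normalization (1.47, limma adjusted p = 0.0554). Without empty vector replicate 1, Il7r passed as well (1.15, limma adjusted p = 0.0137). Both comparisons share the IDH1mut arrays, so they are not independent of each other.

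Treatment with R-2HG was compared with untreated recipients of the same vector cells. Vpreb1, Cd79b and Ebf1 fell, 3 of 10 members, in a comparison where limma called 40.8% of all genes and 24.3% as lower. The share of members called as lower was thus close to that of all genes. Vpreb1 averaged -1.52 ± 0.54 in R-2HG and 0.41 ± 0.55 in empty vector (SD, n = 3 each) and fell by 1.93 ± 0.44 on the log2 scale (SE, limma adjusted p = 0.00469). Cd79b fell by 1.38 ± 0.48 (limma adjusted p = 0.0366) and Ebf1 by 0.99 ± 0.37 (limma adjusted p = 0.0492). The call of Ebf1 lay at the threshold: it was lost in 12 of 21 other settings and passed on 1 of its 5 probe sets, 1416302_at (-1.11, limma adjusted p = 0.02). Cd79b lost its call in 6 of the 21 settings and Vpreb1 in 0. Rag1 at -1.42 ± 0.62 and Vpreb3 at -1.20 ± 0.48 did not pass (limma adjusted p = 0.0857 and 0.0610), nor did Dntt at -0.59 ± 0.35 (limma adjusted p = 0.202). Igll1 passed in opposite directions on its probe sets, at -1.22 on 1420176_x_at (limma adjusted p = 0.0189) and at 0.44 on 1420177_at (limma adjusted p = 0.0128), and the mean of both did not pass (limma called 39.5% of all probe sets). For 5 of 10 members the R-2HG arrays lay wholly below the empty vector arrays, and for 0 wholly above. Of all genes, 53.5% did not overlap in either direction, and the share wholly below is not given separately. Only Vpreb1 was called without empty vector replicate 1, without R-2HG replicate 1, without R-2HG replicate 2, or with R-2HG replicate 3 alone in its group. R-2HG replicate 3 stood closer to empty vector than replicates 1 and 2 did for Ebf1 and Cd79b but farther from it for Vpreb1, Dntt and Rag1.

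**Figure D3:**
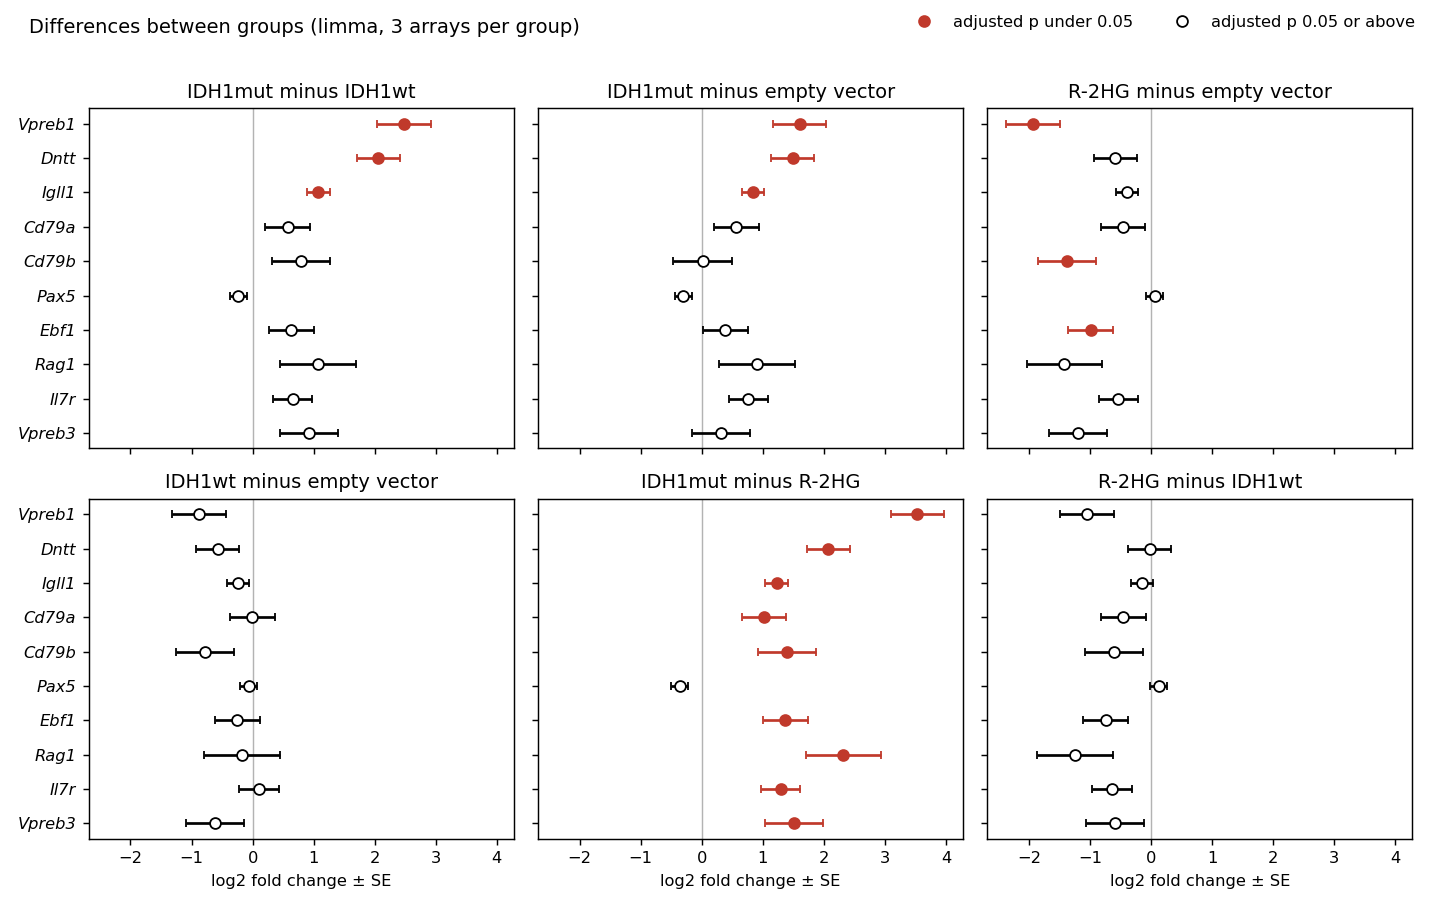
Log2 fold change (x axis, points, with SE as bars) of each early B cell gene (y axis) in the 6 comparisons of the 4 groups, first-named group minus the second, with filled red points for limma adjusted p under 0.05. Of the 10 genes, 3 are filled for IDH1mut minus IDH1wt, 3 for IDH1mut minus empty vector, 3 for R-2HG minus empty vector, 9 for IDH1mut minus R-2HG and 0 in the other panels.

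The IDH1mut and R-2HG groups differed most in the members, with a median log2 fold change of 1.38. The first carried the mutant enzyme, and recipients of the second received R-2-hydroxyglutarate. The arrays hold no measure of that metabolite in either group. All members except Pax5 were higher in IDH1mut, 9 of 10, where limma called 36% of all genes and 20.3% as higher. For 8 of 10 members the arrays of both groups did not overlap, with IDH1mut higher each time, as for 25% of all genes (47.9% did not overlap in either direction). Vpreb1 differed by 3.53 ± 0.44 (limma adjusted p = 0.000602), Rag1 by 2.32 ± 0.62 (limma adjusted p = 0.0144) and Dntt by 2.07 ± 0.35 (limma adjusted p = 0.00211). The 6 other called members lay between 1.02 for Cd79a (limma adjusted p = 0.0453) and 1.52 for Vpreb3, and Pax5 was at -0.36 ± 0.14 (limma adjusted p = 0.0577). The count of members fell to 4 without IDH1mut replicate 3, where 27.3% of all genes were called, to 5 without R-2HG replicate 1 (21.3%), to 6 without R-2HG replicate 2 (19.6%) and to 3 with R-2HG replicate 3 alone (2.12%). After quantile normalization it was 6 (28.8%), with Cd79a, Cd79b and Vpreb3 lost. Pax5 was called in the opposite direction, lower in IDH1mut, in 3 settings. These were array weights (-0.41, limma adjusted p = 0.0349), without IDH1mut replicate 2 (-0.48, limma adjusted p = 0.0284) and without R-2HG replicate 3 (-0.45, limma adjusted p = 0.0292). Vpreb1, Dntt and Igll1 were called in all 21 other settings tried at the gene level, Cd79a in 10 and Cd79b in 13. Some of these settings left out only an array of another group, which changes the SE and p but not the log2 fold change. For Igll1, the setting with the probe set of highest SD used 1420176_x_at alone, and none of the 21 used 1420177_at alone. On 1420177_at Igll1 was at -0.24 (limma adjusted p = 0.141).

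No member passed between wild-type IDH1 and the empty vector. Limma called 0 of 10 members, where it called 1.35% of all genes, and 0 had an unadjusted p under 0.05, as 16.2% of all genes did. The log2 fold changes ran from -0.88 ± 0.44 for Vpreb1 (limma adjusted p = 0.348) to 0.11 ± 0.32 for Il7r. R-2HG against IDH1wt gave 0 of 10 as well, although limma called 44.4% of all genes there, and 1 member, Vpreb1, had an unadjusted p under 0.05, as 52.6% of all genes did. Rag1 was at -1.25 ± 0.62 and Vpreb1 at -1.05 ± 0.44 in that comparison. Without IDH1wt replicate 1, the lowest array of its group, Vpreb1 (-1.41, limma adjusted p = 0.0309), Rag1 (-1.91, limma adjusted p = 0.0234) and Il7r (-0.95, limma adjusted p = 0.0351) were called lower in R-2HG, where 37.6% of all genes were called.

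Other genes of the B cell pathway were described as lists, with limma calls counted as for the members. Over all genes, limma called 15.7% in IDH1mut against IDH1wt and 22.6% in IDH1mut against empty vector. In R-2HG against empty vector it called 40.8%. The list counts here and below stand beside these shares. Of 13 measured genes of pre-B cell and B cell receptor signalling, 1 was higher and 0 lower in IDH1mut than in IDH1wt, with a median log2 fold change of 0.06. That gene was Cd24a, a surface glycoprotein of maturing blood cells (0.29 ± 0.07). In IDH1mut against empty vector, 2 were higher and 1 lower, with Bank1, a B cell scaffold protein, at 0.49 ± 0.12. In R-2HG, 2 of them were higher and 4 lower than in empty vector, among them Bank1 (0.73 ± 0.12) and Blnk, the adaptor below the pre-B cell receptor (-1.45 ± 0.40).

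Among 17 lymphoid transcription factor genes, 2 were higher and 1 lower in IDH1mut than in IDH1wt. The higher genes were Id2 and Spi1 (0.28 ± 0.08, limma adjusted p = 0.0285), and the lower was Tcf12 (-0.30 ± 0.08, limma adjusted p = 0.0294). Id2, an inhibitor of E proteins, was higher by 1.23 ± 0.13 (limma adjusted p = 0.000213), while Tcf3, which encodes the E proteins that act with Ebf1, was at -0.23 ± 0.11 (limma adjusted p = 0.181). In R-2HG against empty vector, 9 of the 17 were lower and 1 higher, where limma called 24.3% of all genes as lower. Tcf3 was at -0.86 ± 0.11 (limma adjusted p = 0.000182) and Id2 at 0.66 ± 0.13. The median of these factors was -0.45 in that comparison, beside 0.00 over all genes.

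Genes that share a step with Rag1, Dntt or Il7r came next. Of 10 recombination and end-joining genes, 1 was higher and 1 lower in IDH1mut than in IDH1wt. Rag2, the partner of Rag1, was at 0.44 ± 0.20 (limma adjusted p = 0.18), and Prkdc, the kinase of end joining, at -0.33 ± 0.10 (limma adjusted p = 0.0377). Xrcc5, which encodes a DNA end-binding protein, was at 0.40 ± 0.26 (limma adjusted p = 0.339). The higher gene was Hmgb2 (0.32 ± 0.09, limma adjusted p = 0.0263), and the lower was Prkdc. Rag2 lies outside the rule for named genes and was added after its values were seen. Of 9 IL-7 signalling genes, 3 were higher and 2 lower, with the kinase gene Jak1 at 0.48 ± 0.09 and the survival gene Mcl1 at 0.33 ± 0.07. The 2 lower genes were Jak3 (-0.50 ± 0.10, limma adjusted p = 0.00498) and Stat5a (-0.49 ± 0.13, limma adjusted p = 0.0280). Of 8 early lymphoid progenitor genes, 2 were higher and 1 lower, with Satb1, a chromatin organiser, at 0.72 ± 0.11 and the costimulatory receptor gene Cd27 at -0.52 ± 0.20 (limma adjusted p = 0.0974). The higher genes of this list were Satb1 and Flt3, a cytokine receptor of early progenitors (0.77 ± 0.24, limma adjusted p = 0.0437). The lower gene was Cd93 (-0.41 ± 0.09, limma adjusted p = 0.0124), and Cd27 did not pass.

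Markers of later B cells and of other lymphoid cells were set beside the members. Of 13 mature B cell genes, 1 was higher and 1 lower in IDH1mut than in IDH1wt. The higher was the tetraspanin gene Cd37 (0.48 ± 0.12), and the lower was Ciita (-0.56 ± 0.17, limma adjusted p = 0.0443). The complement receptor gene Cr2 was at -0.07 ± 0.12 and did not pass (limma adjusted p = 0.74). The median of the 13 genes on each array ran from -0.02 to 0.40 in IDH1mut, from -0.29 to 0.31 in R-2HG, from -0.08 to 0.31 in IDH1wt and from -0.08 to 0.12 in empty vector. Of 6 immunoglobulin and plasma cell genes, 0 were called in IDH1mut against IDH1wt or empty vector, and 2 were lower in R-2HG than in empty vector, Jchain at -2.12 ± 0.22 and Sdc1 at -1.33 ± 0.38. By comparison, the median of the 10 members ran from 0.52 to 1.5 in IDH1mut, from -0.53 to -0.34 in R-2HG, from -0.48 to 0.46 in IDH1wt and from 0.00 to 1.06 in empty vector.

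T cell precursors also use Rag1, Dntt and Il7r. Of 12 T cell genes, 3 were higher in IDH1mut than in IDH1wt: Cd247 by 1.37 ± 0.16, Cd3g by 1.13 ± 0.24 and Cd3d by 0.92 ± 0.15. All 3 encode chains of the T cell receptor complex, as does Cd3e, which was at 0.21 ± 0.10 and did not pass (limma adjusted p = 0.192). The costimulatory receptor gene Cd28 was lower (-1.19 ± 0.13). The median of the list ran from -0.03 to 0.21 in IDH1mut, from -0.04 to 0.16 in R-2HG, from -0.13 to -0.10 in IDH1wt and from -0.02 to 0.04 in empty vector. Of 9 plasmacytoid dendritic cell genes, 0 were higher and 2 lower in IDH1mut than in IDH1wt. The lower genes were Bst2 (-0.81 ± 0.18) and Lair1 (-0.44 ± 0.12, limma adjusted p = 0.0312). Tcf4 was at -0.72 ± 0.23 and did not pass (limma adjusted p = 0.0562). The median of the 9 genes ran from -0.19 to 0.01 in IDH1mut, from -0.11 to 0.00 in R-2HG, from 0.04 to 0.13 in IDH1wt and from 0.00 to 0.19 in empty vector. Of 10 myeloid genes, 3 were higher and 5 lower in IDH1mut than in IDH1wt, the granule protease gene Ctsg at -0.85 ± 0.09 and the integrin gene Itgam at 0.49 ± 0.08. The part of any of these cell types in the members' differences was not tested.

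**Figure D4:**
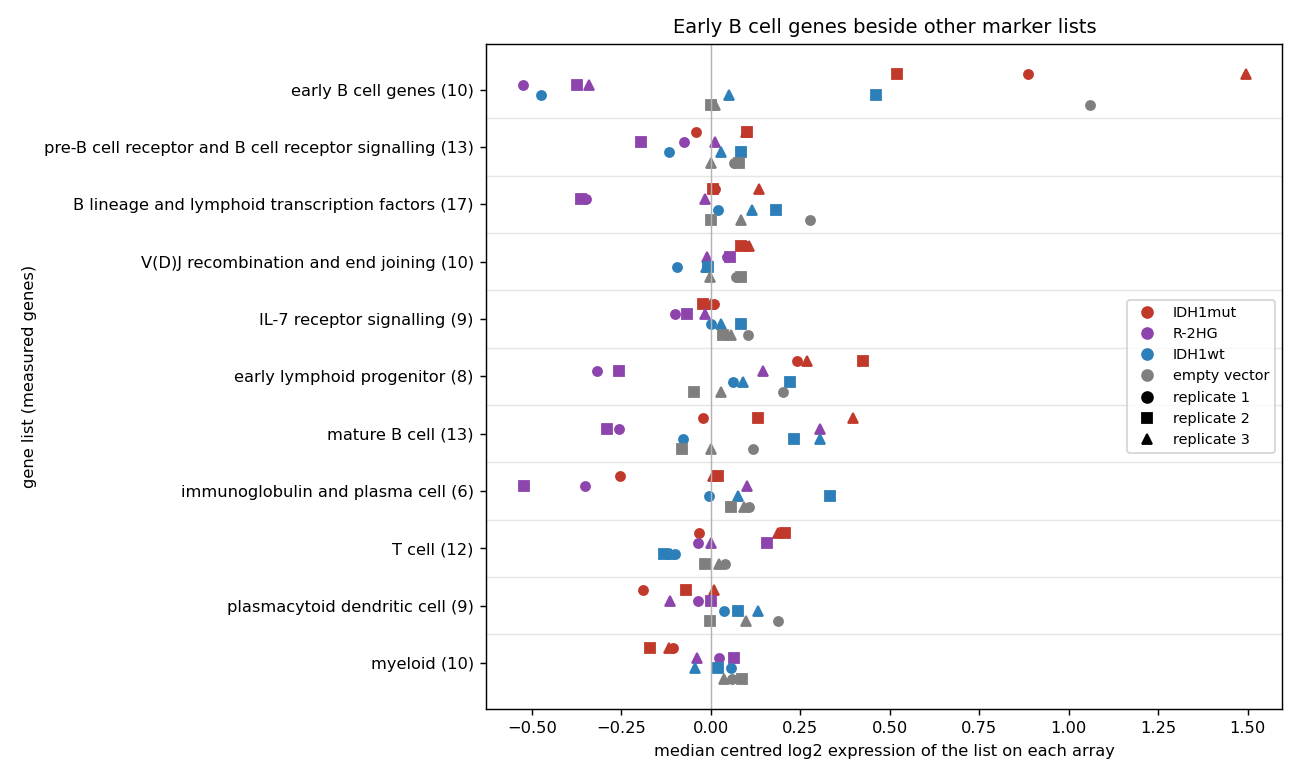
Median centred log2 expression (x axis) of the early B cell genes and of 10 other gene lists (y axis, number of measured genes in brackets) on each array, coloured by group and with symbols for replicates. The early B cell genes run from -0.53 to 1.5, while no other list leaves the range from -0.52 to 0.43.

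The genes whose pattern over the 12 arrays was most like the mean of the members, each scaled to mean 0 and SD 1, were sought among genes with an SD of at least 0.5. The 8 nearest were Mzb1, Id3, Blnk, Chchd10, Akap12, Pou2af1, Mei4 and Slc12a2, with Pearson correlations from 0.954 for Mzb1 to 0.771 for Slc12a2. Id3, Blnk and Pou2af1 also belong to the lists above. The correlations describe likeness only, since the 12 arrays fall into 4 groups and share their replicates' differences. Mzb1, a chaperone of immunoglobulin assembly in B and plasma cells, was at 1.25, 0.88 and 2.23 in IDH1mut, at -0.74, -0.79 and -0.46 in R-2HG, at -0.42, 0.11 and 0.00 in IDH1wt, and at 1.12, 0.30 and 0.21 in empty vector. Its IDH1mut arrays all lay above its IDH1wt arrays, a description of a gene chosen for this pattern. Pou2af1, a B cell transcriptional coactivator, was at -2.50, -2.44 and 0.03 in R-2HG, against 1.60, 0.00 and -0.17 in empty vector, so that R-2HG replicate 3 did not share the low values of replicates 1 and 2.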

How the data were processed

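The authors deposited log2 values that they computed with RMA, per the submitters' processing notes, on 12 arrays of biotin-labelled RNA. The table holds 32533 probe sets and is centred per probe set, with an exact 0 in 83.6% of them and a median of 0 on every array. What the centring refers to, and any scan date or batch, was not given in the labels.

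Probe sets with 1 gene symbol in the platform annotation (28805) were averaged per gene, giving 15858 genes. A linear model with a mean for each group was fitted to the 12 arrays together by limma 3.58.1 (R 4.3.3; eBayes with no trend; residual df 8, prior df 3.96). The two-sided p-values were adjusted by Benjamini-Hochberg across the genes, and errors of log2 fold changes are SEs of this fit. The script was tested on simulated data with known changes. Figures were drawn with matplotlib 3.10.9.

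The members and gene lists were chosen with earlier results of these data known. Genes are named as members, as the 2 of each other list with the smallest p over the 4 groups, or as the 8 most like the members, with exceptions named after their values were seen. Of these, Flt3, Cd3d, Cd3g, Jak3, Stat5a, Spi1, Tcf12, Hmgb2, Cd93, Ciita and Lair1 complete a count. Rag2, Cd3e, Ms4a1 and Cd22 were singled out. Alternatives were quantile normalization, other probe set choices, an SD filter, a trend, array weights, a replicate block, a fold change minimum, fits of 6 arrays and arrays left out. Same-numbered replicates were checked for shared deviations, which were not found.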

Additional observations from a re-analysis of the deposited data

How the results depend on the processing

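The counts of members called were recomputed 132 times under other settings for the 6 comparisons, and 121 of the recomputed counts stayed within 1.5 times the reported one. For IDH1wt against empty vector and R-2HG against IDH1wt the reported count was 0, and only a recomputed 0 counted as within. Some settings left out an array of a group outside the comparison, which cannot move its fold changes. The total of 121 is therefore a weak measure of stability. For IDH1mut against IDH1wt, Vpreb1 (log2 fold change from 2.08 to 2.86), Dntt (from 1.60 to 2.47) and Igll1 (from 0.92 to 2.23) passed in each of 21 settings, with a highest adjusted p of 0.0143, 0.0137 and 0.0139. The setting that took the probe set of highest SD used 1420176_x_at alone for Igll1, which gave the value of 2.23. None of these settings used 1420177_at alone, so they could not show its different result. On probe set 1420177_at Igll1 turned round in IDH1mut against IDH1wt (-0.0741, limma adjusted p = 0.746), in IDH1mut against R-2HG (-0.24, limma adjusted p = 0.141) and in R-2HG against empty vector (0.44, limma adjusted p = 0.0128). For R-2HG against empty vector the count was 1 after quantile normalization and 1 with R-2HG replicate 3 alone in its group, and from 1 to 4 with each array left out in turn. For IDH1mut against R-2HG it was 3 with R-2HG replicate 3 alone, where the spread of the other groups stands in for its own, and from 4 to 9 with each array left out. Without IDH1mut replicate 2, and likewise without R-2HG replicate 3, the count of 9 held 8 members higher in IDH1mut and 1 lower, Pax5. For R-2HG against IDH1wt the count was 3 with array weights, 1 with single probe sets and from 0 to 3 with each array left out. Leaving out each array in turn gave from 2 to 4 for IDH1mut against empty vector, 3 for IDH1mut against IDH1wt and 0 for IDH1wt against empty vector. With a minimum fold change of 1.5 the calls over all genes were 596 for IDH1mut against IDH1wt, 930 for IDH1mut against empty vector, 1627 for R-2HG against empty vector, 1031 for IDH1mut against R-2HG, 1676 for R-2HG against IDH1wt and 119 for IDH1wt against empty vector, beside 2484, 3579, 6471, 5714, 7035 and 214. IDH1wt against empty vector gave 1388 with array weights, 425 after quantile normalization and 382 with the probe set of highest SD. With R-2HG replicate 3 alone the calls were 336 against IDH1mut, 1824 against empty vector and 1610 against IDH1wt. The cause of these changes was not tested, beyond the smaller number of arrays where some were left out.

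A replicate block, with the replicate number as a term, gave 3 members called for IDH1mut against IDH1wt, 3 for IDH1mut against empty vector, 2 for R-2HG against empty vector, 8 for IDH1mut against R-2HG and 0 in the other comparisons. The numbers did not pair the arrays: same-numbered arrays of different groups had deviations that correlated from -0.152 to 0.124 across genes, over 0.1 in 1 of 18 pairs, and 2 of 12 arrays correlated best with an array of their own number. A filter on level could not be run on centred values, so an SD filter took its place.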

Other observations

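Genes of mature B cells did not follow the early genes on every array. Ms4a1, which encodes the mature B cell surface protein CD20, was at -0.02, 0.70 and 0.54 in IDH1mut, at -0.63, -0.79 and 2.00 in R-2HG, at -0.59, 1.17 and 0.53 in IDH1wt, and at 1.65, -0.13 and 0.14 in empty vector. R-2HG replicate 3 thus held the highest value of Ms4a1 on the 12 arrays and the lowest of Vpreb1 (-2.14) and Rag1 (-1.22). Cd22, an inhibitory receptor of B cells, was at -0.41, 0.05 and 0.15 in IDH1mut, at 0.00, 0.00 and 0.84 in R-2HG, at -0.67, 0.50 and 0.06 in IDH1wt, and at 0.27, -0.32 and -0.18 in empty vector. Both genes were chosen after their values were seen, and limma called neither in any of the 6 comparisons.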
